A study of Mus musculus with 83 samples.

Results

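Immediate early genes are transcribed within minutes of a stimulus, from factors that are already present in the cell and without new protein synthesis. MAP kinase signalling acts on their promoters mainly through serum response factor, which binds the CArG box, and through CREB, which binds the cAMP response element (CRE). Most of them encode short-lived transcription factors, and some encode inhibitors that end the response. In the intestine they respond to growth factors, microbial products and injury. Of these genes 10 were examined: Fos, Fosb, Jun, Junb, Egr1, Atf3, Ier2, Dusp1, Nr4a1 and Zfp36. They were taken by name and are 10 of the 37764 genes in the colon count table. All 10 were found once by their Ensembl identifiers and all 10 passed the filter on low counts.

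RNA had been sequenced from the proximal section of the colon of 83 male C57BL/6J/Ukj mice, for which the labels name no treatment and no altered gene. There were 16 mice each at 3, 9 and 15 months (mo), 17 at 24 mo and 18 at 28 mo, and each mouse gave 1 polyadenylated RNA library. Libraries were made in 3 preparation batches, with 4 to 7 mice of each age in each batch. The tissue was whole colon wall, so fewer cells of a type and less RNA per cell cannot be told apart in any value below.

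Depth was 23026370 to 75838290 read pairs counted on genes per mouse, with a median of 35495123. The colon label was checked against marker lists. Epithelial markers had median levels of 368 to 3977 CPM (counts scaled to library size), goblet cell markers reached 18521 CPM, and smooth muscle markers lay between 392 and 993 CPM. These are medians over mice, and the mean log2 CPM of the smooth muscle markers reached lowest in young mice. It was 6.92 to 9.65 at 3 mo, 7.59 to 9.68 at 9 mo and 9.01 to 9.47 at 15 mo. At 24 mo it was 8.9 to 9.67 and at 28 mo 8.61 to 9.5. Adipocyte markers had the widest range between mice, with a mean log2 CPM from -2.51 to 4.8. No pair of same-age mice agreed within sampling noise (649 pairs, with a chi-square of at least 11.5 times its degrees of freedom).

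The regulatory sequences just upstream of these genes are shown here because their levels are compared as a group below. Promoters of 250 bases before and 50 after the transcription start, from RefSeq (GRCm38.p6), were read for 8 of the 10 genes, and those of Egr1 and Ier2 were not analysed here. The windows of Atf3, Dusp1, Nr4a1 and Zfp36 lie inside the annotated gene, downstream of its outermost annotated end. The motif found most often was the core of the CRE, TGACG or its complement CGTCA, which is in capitals in the lines that follow. Printed are the promoters of Fos (chr12:85473640-85473939, plus strand), Fosb (chr7:19309996-19310295, minus strand), Atf3 (chr1:191183284-191183583, minus strand), Junb (chr8:84978699-84978998, minus strand), Dusp1 (chr17:26508423-26508722, minus strand) and Jun (chr4:95052173-95052472, minus strand).
Fos: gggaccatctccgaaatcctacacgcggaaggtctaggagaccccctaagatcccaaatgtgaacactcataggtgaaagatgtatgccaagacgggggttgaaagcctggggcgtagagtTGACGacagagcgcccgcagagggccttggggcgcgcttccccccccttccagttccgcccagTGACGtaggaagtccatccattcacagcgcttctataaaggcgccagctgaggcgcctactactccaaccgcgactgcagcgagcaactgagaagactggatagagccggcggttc
Fosb: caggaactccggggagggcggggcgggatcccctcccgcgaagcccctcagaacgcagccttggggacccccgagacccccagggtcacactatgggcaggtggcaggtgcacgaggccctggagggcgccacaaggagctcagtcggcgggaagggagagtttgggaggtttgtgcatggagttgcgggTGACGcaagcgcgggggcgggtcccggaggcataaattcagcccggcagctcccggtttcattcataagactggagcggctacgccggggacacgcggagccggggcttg
Atf3: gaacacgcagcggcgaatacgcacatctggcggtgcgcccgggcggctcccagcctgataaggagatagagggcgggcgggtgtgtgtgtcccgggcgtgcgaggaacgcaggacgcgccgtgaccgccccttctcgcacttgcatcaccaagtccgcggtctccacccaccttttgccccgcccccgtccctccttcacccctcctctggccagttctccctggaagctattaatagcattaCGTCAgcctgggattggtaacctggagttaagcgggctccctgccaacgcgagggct
Junb: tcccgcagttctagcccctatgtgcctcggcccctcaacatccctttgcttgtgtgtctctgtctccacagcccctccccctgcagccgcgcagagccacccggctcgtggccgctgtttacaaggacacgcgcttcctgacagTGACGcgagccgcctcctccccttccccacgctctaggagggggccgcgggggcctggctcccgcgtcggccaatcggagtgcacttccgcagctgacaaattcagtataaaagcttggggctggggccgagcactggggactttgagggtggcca
Dusp1: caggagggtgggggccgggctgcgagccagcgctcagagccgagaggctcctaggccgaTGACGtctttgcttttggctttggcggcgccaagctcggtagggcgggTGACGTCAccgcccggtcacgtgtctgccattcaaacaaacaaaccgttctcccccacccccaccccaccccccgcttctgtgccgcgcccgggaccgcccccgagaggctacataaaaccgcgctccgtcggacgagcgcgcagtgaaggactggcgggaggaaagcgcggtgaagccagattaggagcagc
Jun: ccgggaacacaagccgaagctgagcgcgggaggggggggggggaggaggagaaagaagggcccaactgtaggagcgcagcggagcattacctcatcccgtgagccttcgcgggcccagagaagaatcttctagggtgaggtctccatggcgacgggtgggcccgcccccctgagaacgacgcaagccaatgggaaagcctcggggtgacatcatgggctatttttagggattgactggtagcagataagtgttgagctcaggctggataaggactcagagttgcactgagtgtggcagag

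Fos held the CRE core at 129 and at 66 bases before the start and a TATA box (TATAAA) at 33 bases before it. Junb also held a TATA box, beginning 0 bases from its annotated start, and this motif was thus in 2 of the 8 promoters, against 13.6% of all promoters. Fosb held 1 core at 60, Junb 1 at 106 and Atf3 1 at 7 bases before the start. Dusp1 was the only one of the 8 with the full palindrome TGACGTCA, at 143 bases before the start, which is in 1.79% of all 32851 RefSeq promoters of this length. The Nr4a1 promoter held 4 cores. In total 6 of the 8 promoters held the core, as do 20.8% of all promoters, and the windows of Jun and Zfp36 held none. Zfp36 alone held a CArG box (CC and GG around a run of A and T) in this window, against 1.63% of all promoters. The EGR motif (GCGTGGGCG or GCGGGGGCG) was in Fosb, Nr4a1 and Zfp36 and in 3.47% of all promoters. The AP-1 motif (TGAGTCA) and the NR4A motif (AAAGGTCA) were in 0 of the 8, against 5.2% and 1.51% of all promoters. Both strands were searched, the CRE core lies inside the full CRE, and these matches describe letters, not bound sites.

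Every gene was detected in every mouse. On the length-corrected TPM scale, the AP-1 subunits Jun and Fos had the highest median levels, at 137 TPM (88.3 to 177) and 134 TPM (74.6 to 231). Ier2, a short-lived nuclear regulator of transcription, followed at 128 TPM (104 to 167) and Junb, an AP-1 subunit that often opposes Jun, at 118 TPM (84.0 to 157). Zfp36 encodes tristetraprolin, which binds AU-rich mRNAs and speeds their decay, and was at 77.1 TPM (59.4 to 107). Atf3, a stress-induced repressor of the CREB family, was at 36.6 TPM (20.99 to 66.3). Dusp1, the phosphatase that switches off MAP kinases, was at 23.1 TPM (16.3 to 39.8). Egr1, a zinc finger activator, and Nr4a1, an orphan nuclear receptor, were at 15.3 TPM (8.44 to 35.5) and 15.2 TPM (8.57 to 30.4). Fosb, a FOS paralog, was lowest at 2.57 TPM (1.14 to 5.66).

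Some neighbours in this order did not separate. Jun exceeded Fos in 40 of the 83 mice, Fos exceeded Ier2 in 51 and Egr1 exceeded Nr4a1 in 45. In contrast, Junb exceeded Zfp36, Zfp36 exceeded Atf3 and Nr4a1 exceeded Fosb in all 83 mice. Fosb was also the gene with the fewest read pairs, 72 to 468 per mouse, while no other of the 10 had fewer than 284.

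The genes lie on separate chromosomes for the most part. In the GRCm38 annotation Fos is on chromosome 12 (85473890 to 85477273, plus strand), Jun on chromosome 4 (95049034 to 95052222, minus strand) and Atf3 on chromosome 1 (191170296 to 191218039, minus strand). Junb (84974484 to 84978718) and Ier2 (84661331 to 84662852) are both on the minus strand of chromosome 8. Fosb (19302696 to 19310051) and Zfp36 (28376784 to 28380253) are both on the minus strand of chromosome 7. Dusp1 is on chromosome 17 (26505590 to 26562128, minus strand), Nr4a1 on chromosome 15 (101254269 to 101274795, plus strand) and Egr1 on chromosome 18. All are protein-coding, and values are counts over all annotated exons.

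Levels varied several-fold between mice of the same strain, sex and tissue. Fosb ranged from 2.28 CPM in a 3 mo mouse (replicate 15) to 11.3 CPM in a 28 mo mouse (replicate 18), which is 4.97-fold. Egr1 ranged from 12.1 to 54.6 CPM, or 4.50-fold, and its lowest value came from the same 3 mo mouse. Fos varied 3.36-fold (55.0 to 185 CPM), Nr4a1 3.30-fold (10.3 to 34.1 CPM) and Atf3 2.81-fold (16.7 to 47.0 CPM). At the other end were Junb with 1.89-fold, Zfp36 with 1.71-fold and Ier2 with 1.57-fold.

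**Figure D1:**
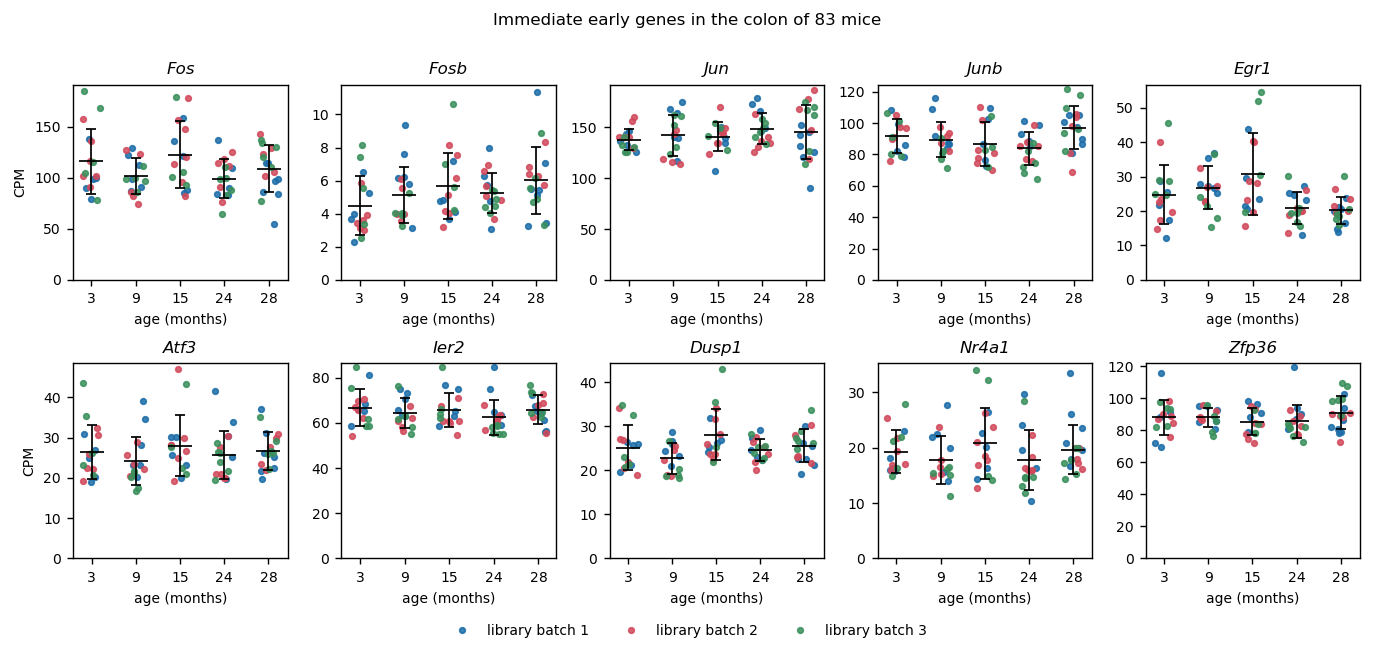
Level of each of the 10 immediate early genes in the colon of each mouse (points, CPM on a linear axis from 0) against age in months, coloured by library batch, with the mean and SD of each age group in black (n = 16, 16, 16, 17 and 18 mice). The age groups overlapped for every gene, and some mice lay well above the median of their group. For Fos at 3 mo the highest mouse had 185 CPM, beside a group median of 103 CPM.

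Most of this variation was not between ages. After the mean of each age and batch was subtracted, the SD of log2 CPM over mice was 0.454 for Fosb, 0.397 for Egr1, 0.351 for Nr4a1, 0.329 for Fos and 0.311 for Atf3 (68 residual degrees of freedom). It was 0.228 for Dusp1, 0.188 for Junb, 0.177 for Jun, 0.148 for Ier2 and 0.143 for Zfp36. The median of the 10 was 0.269, beside 0.198 for all 18325 tested genes. Between 65.3% (Egr1) and 81.1% (Nr4a1) of each gene's variance lay within age and batch groups. Age accounted for 20.98% of the variance of Egr1, 15.2% for Dusp1, 12.8% for Junb and 3.57% for Jun. Library batch accounted for at most 5.27%, for Ier2, and 0 of the 10 genes differed between batches (edgeR adjusted p below 0.1), whereas 13.9% of all tested genes did. At an unadjusted p below 0.05 the number was also 0.

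Spread falls with level in count data, so each gene was also set beside the 1832 or 1833 genes of its own level decile. All 10 had an SD above the median of that decile. Fos stood highest, with a larger SD than 98.5% of genes of like level, followed by Egr1 with 96.4%, Atf3 with 96.2%, Nr4a1 with 94.5% and Fosb with 90.7%. Dusp1 (89.3%), Junb (88.6%) and Jun (81.7%) followed. Zfp36 and Ier2 exceeded 71.0% and 74.9%. Biological variation as edgeR estimates it gave the same order at the top, with a coefficient of variation for Fos that was 2.04 times the trend at its level and 1.82 times for Egr1, while the median over the 10 genes was 1.26 and over all genes 0.71.

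**Figure D2:**
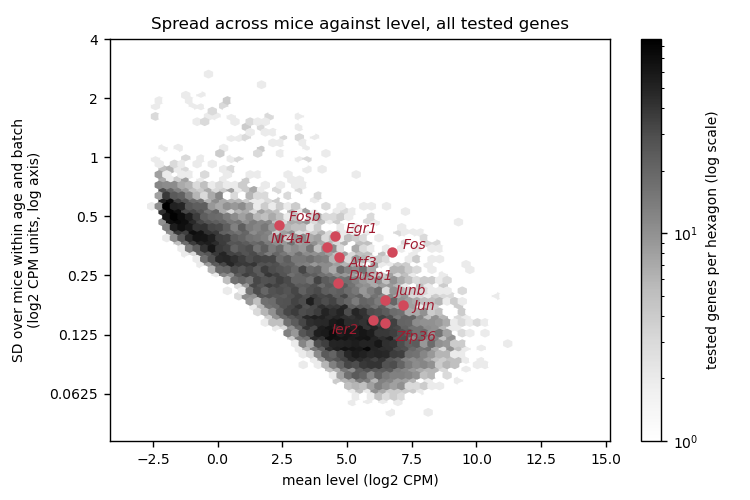
SD over mice within age and library batch (log2 CPM units, log axis) against mean log2 CPM for all tested genes (grey, darker where more genes fall in a hexagon) with the 10 immediate early genes in red. Fos, with an SD of 0.329, and Egr1, with 0.397, lay far above genes of their level, and Ier2 and Zfp36, with 0.148 and 0.143, lay nearest to the other genes of their level, a decile with a median SD of 0.118.

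Most of the genes, but not Jun, rose and fell together across mice. Over the 45 pairs the median Pearson's r was 0.386 after centring within age and batch, beside -0.004 over all pairs of tested genes. An r of at least 0.5 was reached by 16 pairs, or 35.6%, and by 2.04% of all pairs. In a two-sided permutation test of each pair (100000 permutations of mice within age and batch, Benjamini-Hochberg adjustment over 45 relations) 31 pairs had an adjusted p below 0.1, all with a positive r, and 33 did on Spearman's rho. All 31 were positive in each of the 3 library batches and 26 were positive in each of the 5 ages. Leaving out the 2 mice farthest from the median of the first gene of each pair moved no r by more than 0.0633. All values of a mouse share its library and depth.

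FOS, FOSB and ATF3, which can each pair with JUN proteins, had high r among themselves. Fosb and Atf3 had an r of 0.76 and a rho of 0.73 (permutation p = 1e-05, the smallest 100000 permutations can give, adjusted p = 3.75e-05), and r was 0.76 again without 2 mice. Within the batches this r was 0.73, 0.72 and 0.83. Fos correlated with Atf3 at r = 0.73 (rho = 0.73, permutation p = 1e-05, adjusted p = 3.75e-05) and with Fosb at r = 0.70 (rho = 0.69, permutation p = 1e-05, adjusted p = 3.75e-05). Atf3 had the highest mean r with the other 9 genes, 0.515, and reached 0.5 with 6 of them. Egr1 had r = 0.58 with Atf3, 0.57 with Fosb and 0.55 with Fos. Nr4a1 had r = 0.63 with Atf3, 0.55 with Egr1 and 0.52 with Fosb, but 0.37 with Fos, below its 0.44 with Ier2.

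Junb, Ier2 and Zfp36 were also related to one another. Junb and Ier2, both on chromosome 8, had the highest r of all 45 pairs, 0.76 (rho = 0.77, permutation p = 1e-05, adjusted p = 3.75e-05), with 0.71, 0.83 and 0.77 in the 3 batches. Junb and Zfp36 followed with r = 0.57 (rho = 0.58, permutation p = 1e-05, adjusted p = 3.75e-05) and Ier2 and Zfp36 with r = 0.43 (rho = 0.48, permutation p = 0.00074, adjusted p = 0.00151). Junb and Ier2 were not separate from all of the first genes, since Junb had r = 0.53 with Atf3. Ier2 had r = 0.50 with Atf3, 0.48 with Dusp1, 0.45 with Fos and 0.44 with Nr4a1, all above its r with Zfp36. Lower were the r of Ier2 with Egr1 (0.31) and Fosb (0.29). Junb had r = 0.41 with Fos, 0.30 with Fosb and 0.21 with Egr1, the last not called (permutation p = 0.0953, adjusted p = 0.13). Zfp36 had no called relation to Fos (r = 0.10, rho = 0.13, permutation p = 0.427, adjusted p = 0.493) or Fosb (r = -0.01, rho = 0.01, permutation p = 0.956, adjusted p = 0.956). Dusp1 had r = 0.56 to Egr1, 0.54 to Atf3, 0.48 to Ier2 and 0.28 to Zfp36. On principal components of the 10 centred genes, the first held 45.9% of the variance with loadings of 0.30 to 0.42 for 8 genes, 0.18 for Zfp36 and 0.03 for Jun. The second held 15.6% and placed Zfp36 (0.58), Junb (0.50) and Ier2 (0.39) opposite Fosb (-0.34) and Egr1 (-0.24).

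Jun stood apart from all the others. Its 9 relations had r from -0.17 (Nr4a1) to 0.16 (Dusp1), and 0 of the 9 had an adjusted p below 0.1, on Pearson's r or on rho. Fos and Jun, the partners of the classical AP-1 dimer, had r = 0.12 (rho = 0.09, permutation p = 0.298, adjusted p = 0.353), with -0.01, 0.19 and 0.21 in the batches. Jun and Junb had r = -0.04 (rho = -0.01, permutation p = 0.748, adjusted p = 0.783). Jun had 2168 to 12337 read pairs per mouse and an SD of 0.177, beside 0.188 for Junb. What set Jun apart was not tested.

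**Figure D3:**
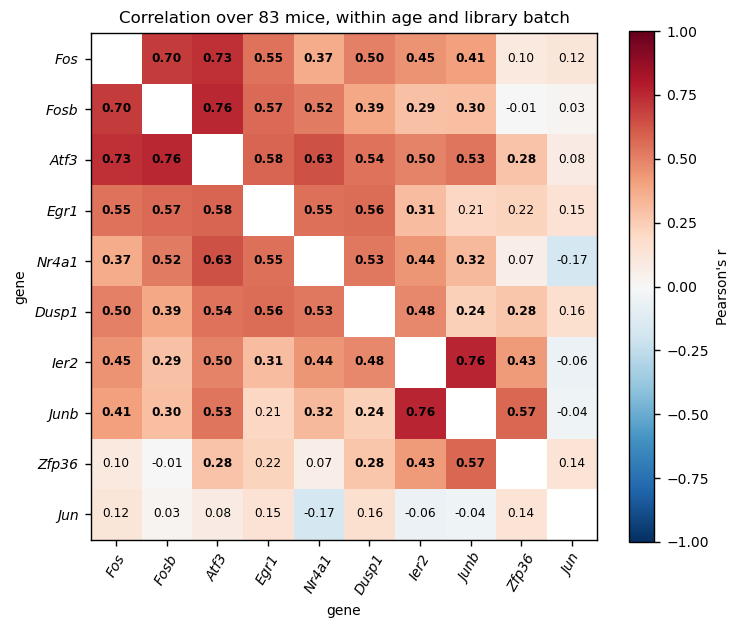
Pearson's r between each pair of the 10 genes over 83 mice, on log2 CPM centred within age and library batch, with bold print where the permutation p adjusted over 45 pairs was below 0.1. The highest values, 0.76, are those of Fosb with Atf3 and of Junb with Ier2, and the Jun column lies between -0.17 and 0.16.

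**Figure D4:**
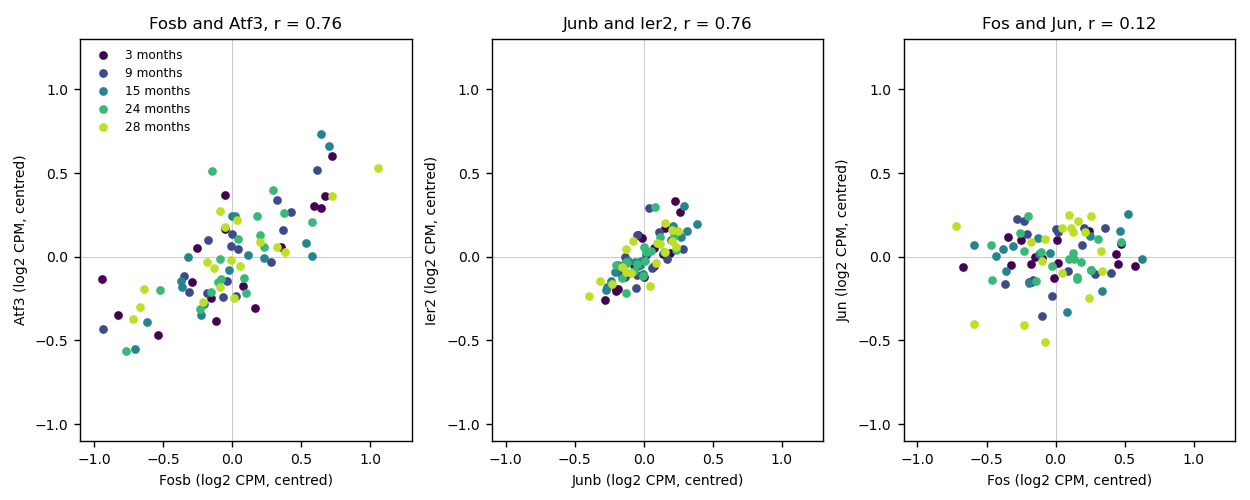
Centred log2 CPM of 3 pairs of genes, 1 point per mouse and coloured by age in months. Fosb and Atf3 and Junb and Ier2 lie along a line (r = 0.76 for both), while Fos and Jun form a round cloud (r = 0.12).

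Single mice were high or low across most of the set. The mean standardized level of the 10 genes was highest in a 15 mo mouse (replicate 2, 1.42), a 3 mo mouse (replicate 10, 1.36) and another 15 mo mouse (replicate 5, 1.35). In the first of these all 10 genes were above the mean of their age and batch, and in the other two 9 were. The lowest mice were 15 mo replicate 14 (-1.32), 24 mo replicate 4 (-1.20), and 3 mo replicate 3 and 28 mo replicate 13 (both -1.13). All 10 genes were above the group mean in 2 mice and all 10 below it in 2. Both high and low mice occurred in the 15 mo group, where the SD of this mean was 0.792, against 0.665 at 3 mo, 0.478 at 9 mo, 0.545 at 24 mo and 0.507 at 28 mo. The difference between these SDs was not tested. Without the 3 highest mice the median r between genes was 0.303, and 27 pairs had an adjusted p below 0.1. These mice were picked, after seeing the data, for their joint level of the same 10 genes, which by itself lowers r.

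With age, 4 of the 10 genes differed somewhere over the 5 ages (edgeR quasi-likelihood F-test, Benjamini-Hochberg adjusted p below 0.1 over all tested genes). They were Egr1 (adjusted p = 0.000543), Dusp1 (adjusted p = 0.0181), Junb (adjusted p = 0.0480) and Fos (adjusted p = 0.0965). Of all 18325 tested genes 54.9% differed, so the share of the immediate early genes was not above the background. Fos was not called in 44 of 83 fits that left out 1 mouse, with an adjusted p of up to 0.176 without 15 mo replicate 5. Without library batch 3 the called genes were Egr1 and Fosb. The other 6 had adjusted p-values of 0.166 (Fosb), 0.340 (Nr4a1), 0.476 (Atf3), 0.493 (Ier2), 0.524 (Zfp36) and 0.579 (Jun).

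Between 3 and 9 mo, 0 of the 10 differed with edgeR, 0 had an unadjusted p below 0.05 and 0 differed with DESeq2, while 8.69% of all tested genes did. Fosb had the largest positive difference, 0.18 ± 0.16 log2 (SE), and Fos the largest negative one, -0.18 ± 0.11 log2.

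Between 9 and 15 mo, Dusp1 rose. Its levels were 18.3 to 28.6 CPM with a median of 22.8 CPM in 16 mice at 9 mo and 21.9 to 43.0 CPM with a median of 26.0 CPM in 16 mice at 15 mo. The groups overlapped, but 14 of the 16 older mice were above the younger median. The fold change was 1.24, or 0.31 ± 0.08 log2 (SE, edgeR adjusted p = 0.0712), and 0.431% of all genes were called. In batches 1, 2 and 3 the difference was 0.10, 0.29 and 0.57 log2, and without batch 3 the call was lost (0.19 log2, edgeR adjusted p = 0.435). Fos, Atf3 and Nr4a1 had differences of 0.25 ± 0.11, 0.22 ± 0.11 and 0.24 ± 0.12 log2 that did not pass the test.

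Between 15 and 24 mo, Egr1 and Fos fell, 2 of the 10 genes where 13.5% of all genes were called. Egr1 was at 15.5 to 54.6 CPM with a median of 28.4 CPM in 16 mice at 15 mo and at 13.04 to 30.1 CPM with a median of 20.1 CPM in 17 mice at 24 mo. Of the older mice 16 of 17 were below the younger median, and no 24 mo mouse exceeded 30.1 CPM. The change was -0.56 ± 0.14 log2, or 0.679 of the earlier level (edgeR adjusted p = 0.00705). Within batches 1, 2 and 3 it was -0.28, -0.44 and -0.86 log2, and without batch 3 it was -0.39 log2 and no longer called (edgeR adjusted p = 0.136).

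Fos ranged from 82.1 to 179 CPM with a median of 117 CPM at 15 mo and from 65.0 to 137 CPM with a median of 98.8 CPM at 24 mo. Its groups overlapped widely, with 14 of 17 older mice below the younger median. The change was -0.30 ± 0.11 log2 (edgeR adjusted p = 0.0787), with -0.21, -0.24 and -0.36 log2 in the batches. Without batch 3 it was -0.24 log2 and not called (edgeR adjusted p = 0.280). Dusp1, which had risen before, changed by -0.19 ± 0.08 log2 and did not pass (edgeR adjusted p = 0.117). Over the same interval 4 of 6 macrophage markers and 4 of 6 endothelial markers rose and 3 of 7 goblet cell markers fell. The macrophage marker mean was 4.33 to 5.02 log2 CPM at 15 mo and 4.47 to 5.31 at 24 mo, the endothelial mean 3.45 to 4.32 and 4.06 to 4.40, and the goblet mean 10.8 to 11.5 and 10.8 to 11.3. Of the heat shock chaperones 3 of 8 fell, with a list median of -0.44 log2 and a mean of 5.26 to 6.77 log2 CPM at 15 mo and 5.52 to 6.58 at 24 mo. Each macrophage, endothelial and goblet cell marker had a median of at least 5.52 CPM, and the part of these lists in the changes of Egr1 and Fos was not tested. With the epithelial and smooth muscle means as covariates the changes were -0.55 log2 for Egr1 (edgeR adjusted p = 0.00854) and -0.27 log2 for Fos (edgeR adjusted p = 0.0828).

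Between 24 and 28 mo, Junb rose. Its range was 64.5 to 101 CPM with a median of 85.5 CPM in 17 mice at 24 mo and 68.8 to 122 CPM with a median of 97.9 CPM in 18 mice at 28 mo. The groups overlapped and 14 of the 18 older mice were above the younger median. The fold change was 1.15, or 0.21 ± 0.06 log2 (edgeR adjusted p = 0.0335), and 11.7% of all genes were called. The rise was largest in batch 3, with 0.46 log2 there against 0.02 and 0.09 log2 in batches 1 and 2, and without batch 3 it was 0.08 log2 (edgeR adjusted p = 0.629). At 28 mo 9 of 11 clock genes also differed from 24 mo, 7 of them higher, and the mean log2 CPM of the list was 3.92 to 5.18 at 24 mo and 3.95 to 5.76 at 28 mo. Ciart, a repressor in the circadian clock, rose by 2.44 ± 0.30 log2 (edgeR adjusted p = 1.78e-08), and Per3 and Tef, which follow the same daily rhythm, by 1.46 ± 0.17 and 1.66 ± 0.20 log2. Of the B and plasma cell markers 4 of 6 fell, with a mean of 3.61 to 5.83 log2 CPM at 24 mo and 2.88 to 4.85 at 28 mo. Of the goblet cell markers 3 of 7 fell (10.8 to 11.3 and 10.5 to 11.2 log2 CPM), and 4 of 8 glucocorticoid-induced genes rose (5.36 to 6.13 and 5.63 to 6.32 log2 CPM). The part of these differences in the Junb result was not tested. Egr1 did not change further (-0.05 ± 0.14 log2, edgeR adjusted p = 0.884).

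Over the whole span from 3 to 28 mo, Fosb rose and Egr1 fell, and 49.4% of all genes were called. Fosb was at 2.28 to 8.18 CPM with a median of 3.81 CPM at 3 mo and at 3.29 to 11.3 CPM with a median of 5.66 CPM at 28 mo. The ranges overlapped, and 15 of 18 old mice were above the young median. The change was 0.42 ± 0.16 log2, a fold change of 1.34 (edgeR adjusted p = 0.0269), with 0.40, 0.83 and 0.12 log2 in batches 1, 2 and 3. Without batch 3 it was 0.62 log2 (edgeR adjusted p = 0.00840). Egr1 was at 12.1 to 45.6 CPM with a median of 24.0 CPM at 3 mo and at 13.9 to 30.1 CPM with a median of 20.0 CPM at 28 mo. Its range at 28 mo lay inside that at 3 mo, and 16 of 18 old mice were below the young median. The change was -0.29 ± 0.14 log2 (edgeR adjusted p = 0.0848), but it was -0.14, 0.02 and -0.58 log2 in the batches, and without batch 3 it was not called (edgeR adjusted p = 0.541).

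The other 8 genes had differences of -0.09 to 0.08 log2 between 3 and 28 mo, with standard errors of 0.05 to 0.12. Of the markers, 5 of 6 for macrophages, 5 of 5 for red blood cells and 4 of 6 for endothelium rose over this span, 6 of 7 for goblet cells, 4 of 7 for epithelium and 3 of 6 for B and plasma cells fell, and 9 of 11 clock genes differed. The macrophage mean was 4.17 to 4.89 log2 CPM at 3 mo and 4.08 to 5.37 at 28 mo, the red blood cell mean -0.69 to 1.46 and -0.46 to 3.37, the goblet mean 10.9 to 11.4 and 10.5 to 11.2, and the epithelial mean 10.1 to 10.5 and 9.98 to 10.4. The endothelial mean was 3.80 to 4.15 and 3.75 to 4.51 log2 CPM, and the B and plasma cell mean 3.35 to 5.56 and 2.88 to 4.85. With the epithelial and smooth muscle means as covariates, Fosb rose by 0.51 log2 (edgeR adjusted p = 0.0111) and Egr1 was no longer called (-0.29 log2, edgeR adjusted p = 0.112), while Junb was called in its place (edgeR adjusted p = 0.0600). Over all ages this fit called 5 genes, Fosb besides the other 4. The part of the other cell types was not tested.

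Relatives and partners of the 10 genes were read beside the 49.4% of all genes called between 3 and 28 mo. The called shares were 66.7% for the EGR and NR4A relatives, 38.5% for the AP-1 relatives, 50% for the feedback regulators, 41.7% for the other rapidly induced genes and 54.2% for the upstream genes. These shares were not tested against the background, and the counts are given as a description. Of 6 tested EGR and NR4A relatives 4 fell between 3 and 28 mo and 0 rose. Nr4a2 fell by 0.82 on the log2 scale (SE 0.12, edgeR adjusted p = 1.25e-07), Egr3 by 0.69 (SE 0.17, edgeR adjusted p = 0.000626) and Nr4a3 by 0.53 (SE 0.15, edgeR adjusted p = 0.00345), whereas Nr4a1 itself differed by 0.01 ± 0.12 log2. Of 13 AP-1 relatives 4 rose and 1 fell, with Jdp2, a repressor of AP-1, up by 0.26 ± 0.08 log2 and Batf2 down at -0.26 ± 0.08 log2. Of 12 feedback phosphatases, Sprouty genes and ZFP36 relatives 4 rose and 2 fell. Dusp4 rose by 0.43 ± 0.09 log2 and Dusp10 by 0.42 ± 0.09 log2, while Dusp5 was at -0.36 ± 0.08 log2. Among 36 other rapidly induced genes 8 rose and 7 fell, and among 24 upstream kinases and transcription factors 7 rose and 6 fell. Mapk9, a JNK gene, rose by 0.17 ± 0.03 log2 and Mapk14, which encodes p38 alpha, was at -0.27 ± 0.05 log2. The medians of these 5 lists were -0.38, 0.10, -0.01, 0.04 and 0.00 log2, beside -0.01 log2 for all genes.

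Heat shock chaperones and glucocorticoid-induced genes were read beside them as other stress responses. Of 8 heat shock chaperones 7 were lower at 28 than at 3 mo and 7 were lower at 9 than at 3 mo. Hspa1a, an inducible HSP70 gene, was at -2.32 ± 0.37 log2 at 9 against 3 mo (edgeR adjusted p = 7.05e-06), an interval in which 0 of the 10 immediate early genes were called. Hspa1a and Hspa1b are near-identical, so reads can be split between them. Hsph1 was at -1.13 ± 0.25 log2 (edgeR adjusted p = 0.00250). Of 8 glucocorticoid-induced genes 3 rose and 1 fell from 3 to 28 mo, which is 50% and close to the 49.4% of all genes, with Zbtb16 up by 0.87 ± 0.20 log2.

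Across mice, 12 of the 18315 other tested genes (0.0655%) had a mean r of at least 0.4 with the 10 genes. The highest means were those of Areg (0.497), which encodes the EGF receptor ligand amphiregulin, the kinase gene Plk3 (0.493) and Hbegf (0.486), another EGF receptor ligand. Trib1 (0.447), Phlda1 (0.441), Gadd45a (0.424), Errfi1 (0.418), an inhibitor of the EGF receptor, Id1 (0.417), Btg2 (0.415) and Apold1 (0.412) completed the 10 nearest. Hbegf had r = 0.82 with Fos and 0.73 with Fosb, but -0.02 with Jun. Of these 10 nearest genes 6 were on the list of other rapidly induced genes. The gene nearest to Jun alone, chosen after its values were seen, was Rhob with r = 0.63, and Rhob had r of at most 0.19 with the other 9.

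Mean levels of whole lists were then correlated with each gene (210 relations with 20 lists and library size, permutation test, Benjamini-Hochberg adjustment over the 210), and 45 relations had an adjusted p below 0.1. The AP-1 relatives followed 9 of the 10 genes (r = 0.28 to 0.56, all but Jun), and the other rapidly induced genes and the feedback regulators each followed 8 (all but Jun and Zfp36). Within batches the lowest of these values were 0.10 for Zfp36 with the AP-1 relatives in batch 3, and 0.13 for Junb and 0.09 for Ier2 with the feedback regulators in batch 1. The highest was Fos with the other rapidly induced genes (r = 0.73, rho = 0.72, permutation p = 1e-05, adjusted p = 0.000162, r = 0.70 without 2 mice). These are relations of list means, and single genes of a list differed. Their mean r with the 10 genes was -0.115 to 0.37 for the AP-1 relatives (median 0.165). It was -0.218 to 0.493 for the other rapidly induced genes (median 0.178) and -0.026 to 0.397 for the feedback regulators (median 0.288). Fos was the one gene whose relation to the upstream kinases and transcription factors passed (r = 0.32, rho = 0.36, permutation p = 0.00598, adjusted p = 0.0392). Library size had 0 relations past the threshold, with r from -0.13 to 0.19.

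Some genes also followed markers of cell types. Epithelial markers rose with Junb (r = 0.40, rho = 0.43, permutation p = 0.00031, adjusted p = 0.00296), Fos (r = 0.39, rho = 0.44, permutation p = 0.00327, adjusted p = 0.0229) and Ier2 (r = 0.37, rho = 0.38, permutation p = 0.0112, adjusted p = 0.0603). Goblet cell markers rose with Fos (r = 0.38, rho = 0.36, permutation p = 0.00208, adjusted p = 0.0162) and Ier2 (r = 0.35, rho = 0.24, permutation p = 0.00855, adjusted p = 0.0513), the latter not past the threshold on rho (adjusted p = 0.185). Adipocyte markers rose with Fos (r = 0.39, rho = 0.37, permutation p = 0.00054, adjusted p = 0.00454), Egr1 (r = 0.31, rho = 0.34, permutation p = 0.0106, adjusted p = 0.0585), Fosb (r = 0.27, rho = 0.28, permutation p = 0.0165, adjusted p = 0.0823) and Atf3 (r = 0.27, rho = 0.23, permutation p = 0.0180, adjusted p = 0.0877), the last not past the threshold on rho (adjusted p = 0.173). In batch 3 alone r was 0.27, 0.00, 0.17 and 0.14 for these 4 genes. Atf3 was lower where enteric neuron and glia markers were higher (r = -0.36, rho = -0.36, permutation p = 0.00797, adjusted p = 0.0492). Smooth muscle markers had 0 relations past the threshold, with r from -0.25 to -0.01. On residuals from the epithelial and smooth muscle means the median r between the 10 genes was 0.386 and 32 pairs were called.

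Jun, with no called relation to the other 9, had called relations with other lists. It rose with macrophage markers (r = 0.42, rho = 0.25, permutation p = 0.0025, adjusted p = 0.0187) and endothelial markers (r = 0.35, rho = 0.26, permutation p = 0.00946, adjusted p = 0.0552). Both fell short on rho (adjusted p = 0.160 and 0.157), and without 2 mice r was 0.29 and 0.24, so both relations rest in part on those mice. Macrophage markers also rose with Egr1 (r = 0.32, rho = 0.32, permutation p = 0.00298, adjusted p = 0.0216), and there r was 0.32 without 2 mice, rho passed too (adjusted p = 0.0338), and the batches gave 0.46, 0.39 and 0.12. Jun was lower where clock genes were higher (r = -0.37, rho = -0.32, permutation p = 0.0100, adjusted p = 0.0569), with -0.16, -0.62 and -0.42 in the batches. Heat shock chaperones rose with Fos (r = 0.44, rho = 0.50, permutation p = 0.0005, adjusted p = 0.00437) and Ier2 (r = 0.38, rho = 0.32, permutation p = 0.00484, adjusted p = 0.0328), while r with Egr1 was -0.06. In batches 1, 2 and 3 r was 0.27, 0.40 and 0.66 for Fos and 0.03, 0.38 and 0.75 for Ier2, whose relation was thus near 0 in batch 1. Glucocorticoid-induced genes rose with Junb (r = 0.31, rho = 0.32, permutation p = 0.00797, adjusted p = 0.0492) and Ier2 (r = 0.31, rho = 0.26, permutation p = 0.0151, adjusted p = 0.0772), the latter not past the threshold on rho (adjusted p = 0.141). In the 3 batches r was 0.37, 0.01 and 0.57 for Junb, near 0 in batch 2, and 0.27, 0.19 and 0.45 for Ier2. The EGR and NR4A relatives rose with Fosb (r = 0.28, rho = 0.30, permutation p = 0.0198, adjusted p = 0.0944), with 0.27, 0.49 and 0.06 in the batches.

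**Figure D5:**
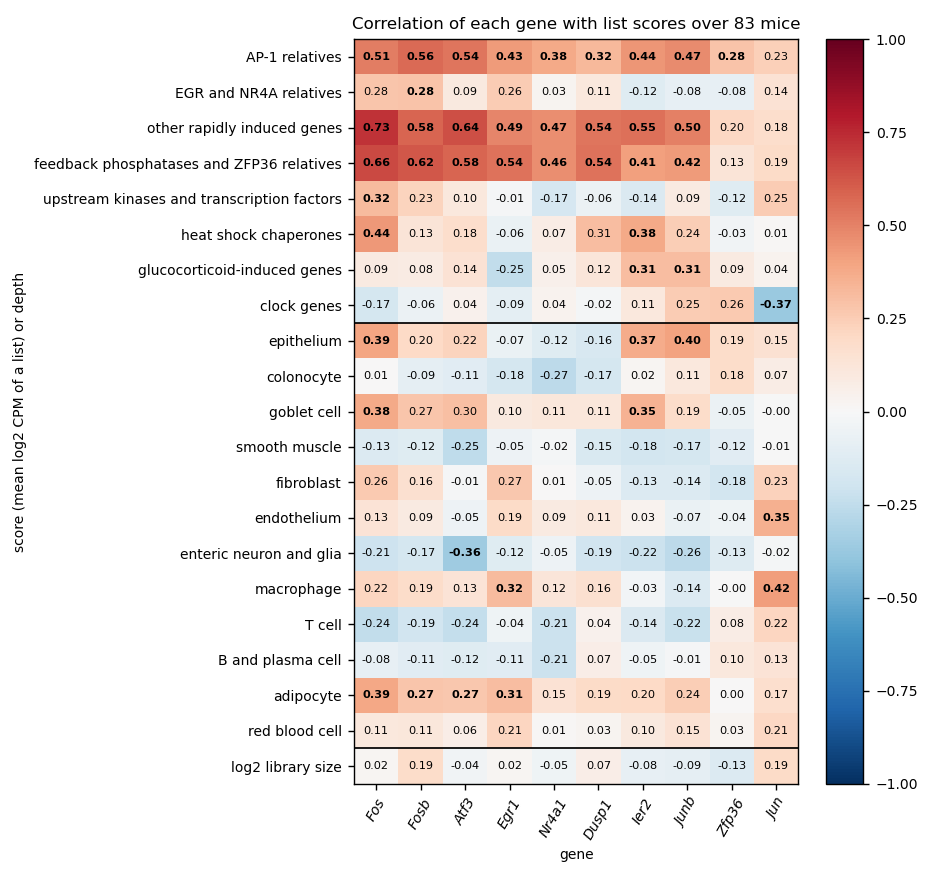
Pearson's r over 83 mice between each of the 10 genes (columns) and the mean log2 CPM of 8 lists of response genes, 12 lists of cell type markers and log2 library size (rows), all centred within age and library batch, with bold print where the permutation p adjusted over 210 relations was below 0.1. The rows of AP-1 relatives, other rapidly induced genes and feedback regulators are high for most genes, with up to 0.73 for Fos, and the Jun column is not.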

How the data were processed

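Reads had been trimmed (cutadapt 2.8), quality filtered (PrinSeq Lite) and mapped on GRCm38 (HISAT2 2.1.0) by the authors, who selected unique alignments with SAMtools 1.9 and counted strand-specific pairs per gene with featureCounts (Subread 2.0.1). The deposited values are raw counts per gene and mouse, without pooling, and every column was used. The members, lists and tests were chosen with earlier results of these data known. Genes were filtered with filterByExpr by age and normalized by TMM, and 18325 were tested in 1 edgeR 4.0.16 quasi-likelihood model (R 4.3.3) with age and batch over 83 mice, with a threshold of 0.1 on the Benjamini-Hochberg adjusted p over all tested genes. Spread and correlations used log2 CPM with a prior count of 2, centred within age and batch. CPM was computed on TMM-scaled library sizes, and TPM used merged exon lengths from GENCODE M21, which held 37652 of the 37764 genes. A list's score is its mean log2 CPM without the 10 genes. Named relatives were the up to 3 genes per list with the smallest adjusted p over all ages, and named neighbours the 10 genes with the highest mean r. Scripts were tested on simulated data. Alternatives were other size factors, filters, DESeq2 1.42.0, covariates, subsets of ages and batches, and leaving out each mouse. Permutations and plots were made in Python 3.11.15 (numpy 2.4.6, matplotlib 3.10.9). Mice are separate animals, and p-values judge group differences and correlations against the variation between them.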

Additional observations from a re-analysis of the deposited data

How the results depend on the processing

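No count and no called fold change reversed in the fits with another setting or without 1 mouse, but the values within single batches differ in sign for Egr1 between 3 and 28 mo (-0.14, 0.02 and -0.58 log2 in batches 1, 2 and 3). The count over all ages fell from 4 to 3, without Fos, at an adjusted p below 0.05 and without the filter on low counts. The count of genes called between 9 and 15 mo fell from 1 to 0 at an adjusted p below 0.05, without the filter on low counts and with only the 2 ages compared. The count between 15 and 24 mo fell from 2 to 1, Egr1, at an adjusted p below 0.05 and without the filter. That between 3 and 28 mo fell from 2 to 1, Fosb, at 0.05, without the filter and with only the 2 ages compared. Without library batch 3, an alternative chosen after seeing the data, the counts were 2 over all ages, 0 for 15 against 9 mo, 0 for 24 against 15 mo, 0 for 28 against 24 mo and 1 for 28 against 3 mo. The cause was not tested, and that fit holds fewer mice.

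Replicate numbers repeat between ages but do not pair the mice: same-numbered mice of different ages had a median r of 0.0143 over 161 pairs, against -0.00367 for the others, and 17.4% of them against 16.4% were above 0.1. With the replicate number as a replicate block, 1 gene was called for 24 against 15 mo (Egr1) and 1 for 28 against 3 mo (Fosb), and over all ages Fos was not called.

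Leaving out 1 mouse at a time gave 3 to 4 genes over all ages, 0 for 9 against 3 mo, 0 to 1 for 15 against 9 mo, 1 to 3 for 24 against 15 mo, 1 for 28 against 24 mo and 1 to 2 for 28 against 3 mo. The calls of Egr1 between 15 and 24 mo, Junb and Fosb held in all 83 such fits. Dusp1 between 9 and 15 mo was lost in 13 fits, those without 9 mo replicates 1, 2, 4, 6, 9, 10 and 13 or 15 mo replicates 1, 2, 5, 6, 15 and 16, with 0.26 to 0.34 log2 over all fits. Fos between 15 and 24 mo was lost in 11, those without 15 mo replicates 1, 2, 5, 6, 8 and 13 or 24 mo replicates 1, 2, 10, 15 and 16, with -0.34 to -0.25 log2. Egr1 between 3 and 28 mo was lost in 16, those without 3 mo replicates 2, 5, 8, 10, 11, 14 and 16, 24 mo replicate 14 or 28 mo replicates 3, 5, 6, 7, 11, 12, 13 and 16, with -0.33 to -0.20 log2.

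The median SD of 0.269 was 0.241 from the median absolute deviation, 0.246 in library batch 2 alone, 0.246 without the 3 mice of the highest mean level and 0.261 to 0.271 without any 1 mouse. The median r of 0.386 was 0.466 in batch 2 alone, 0.303 without those 3 mice and 0.351 to 0.430 without any 1 mouse. Over other scalings, no centring and residuals on tissue scores, 31 to 35 pairs were called.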

Other observations

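Some relations of Nr4a1 and Egr1 were low in the oldest mice. Among the 18 mice at 28 mo the r of Nr4a1 was 0.19 with Atf3, 0.08 with Egr1, 0.04 with Fosb and -0.39 with Fos, whereas in the 4 younger groups these ranged from 0.53 to 0.81, 0.34 to 0.77, 0.55 to 0.81 and 0.18 to 0.70. Egr1 at 28 mo had r = 0.14 with Atf3 and 0.25 with Fos, against 0.38 to 0.73 and 0.34 to 0.75 in the younger groups, but its r with Fosb (0.26), Dusp1 (0.34) and Ier2 (0.37) lay within the range of the other ages and that with Jun (0.59) was its highest of any age. These values were picked from 45 pairs in 5 ages after they were seen, and the difference between ages was not tested. At 28 mo replicate 9 had the highest Nr4a1 of its age group, 33.4 CPM, where the next mouse had 26.1 CPM. The same mouse had the lowest Fos of the group, 55.0 CPM, where the next had 76.9 CPM. Its Fosb was 3.46 CPM, beside a group median of 5.66 CPM. The low r of Nr4a1 at 28 mo may thus rest in part on replicate 9, and r without it was not computed. The SD of Nr4a1 was 0.288 log2 CPM at 28 mo, and 0.275, 0.330, 0.429 and 0.415 at 3, 9, 15 and 24 mo.

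Jun was the steadiest of the 10 genes in the 3 mo mice, with a coefficient of variation of 7.56% over 16 mice, and varied by 18.1% over the 18 mice at 28 mo. Its lowest and highest values of all 83 mice, 90.2 and 187 CPM, both came from 28 mo mice. Zfp36 at 9 mo had the lowest coefficient of variation of any of the 10 genes at any age, 6.93%. These differences in spread were not tested.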
